A study of Mus musculus with 4 samples.

Results

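The Hox genes are the 39 mouse genes whose symbol in the deposited gene list is Hox, a cluster letter from a to d and a number from 1 to 13, out of 32285 genes listed. Transcripts antisense to them were left out by that rule. The 39 genes comprise 11 of cluster a on chromosome 6, 10 of cluster b on chromosome 11, 9 of cluster c on chromosome 15 and 9 of cluster d on chromosome 2 (GRCm38). They were described here across 4 libraries of single nuclei from microdissected mouse spinal dorsal horn. The libraries are Gpr37l1-/- mice 1 day after spared nerve injury (KO SNI), Gpr37l1+/+ mice 1 day after that injury (WT SNI), naive Gpr37l1-/- mice (KO naive) and naive Gpr37l1+/+ mice (WT naive). Gpr37l1 encodes a G protein-coupled receptor of astrocytes, and spared nerve injury (SNI) cuts branches of the sciatic nerve as a model of neuropathic pain. The labels name genotype, tissue and time, but do not state pooling of animals, age or strain. A treatment tag contradicts the sample title for KO naive and WT SNI, and groups follow the titles. Each group is 1 library, so no test was made, and 95% intervals in parentheses cover counting error only.

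Hox genes encode homeodomain transcription factors that lie in 4 clusters on different chromosomes. Within a cluster the order of the genes matches the order of their expression along the body axis, with low paralogue numbers reaching farthest toward the head and high numbers restricted to the tail end. In the spinal cord they set the identity of motor neurons at cervical, thoracic and lumbar levels, and their transcripts persist in the adult cord. Microglia come from the yolk sac and not from the neural tube, so they serve here as the class that should lack Hox transcripts.

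The 4 libraries held 28019 barcodes in KO SNI, 27233 in WT SNI, 37552 in KO naive and 19942 in WT naive, with 35197290 to 69572640 UMIs (counted molecules). After filtering, 25283 nuclei were kept in KO SNI, 24442 in WT SNI, 33774 in KO naive and 17771 in WT naive, and several clusters, the largest among them, were left unnamed by the marker genes. Pairs of libraries shared 162 to 293 cell barcodes, at most 1.05% of the smaller library. Gpr37l1, the targeted gene, had 2 UMIs in KO SNI, 207 in WT SNI, 0 in KO naive and 134 in WT naive astrocyte-like nuclei. KO naive stood apart from the other 3 libraries, and the pairs that hold it had the most genes past 1.5-fold, as given with each pair. Oligodendrocyte-like nuclei came from cluster 2 (2727, 2510, 308 and 2926 nuclei in KO SNI, WT SNI, KO naive and WT naive) and cluster 6 (196, 68, 4477 and 21), so KO naive and the other libraries rest on different clusters. The unnamed cluster 1 was as uneven, with 235 nuclei in KO SNI, 4945 in WT SNI, 4782 in KO naive and 119 in WT naive, and it counts toward all kept nuclei.

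Over all kept nuclei the 39 Hox genes held 191804 UMIs. Of these, 41.1% belonged to cluster c, 32.3% to cluster b, 17.6% to cluster a and 8.93% to cluster d. Hoxc6 alone had 25166 UMIs, followed by Hoxc4 with 15351, Hoxc8 with 14443 and Hoxb3 with 14316. Of the 39 genes, 29 had at least 200 UMIs and are given one by one. Of the low genes, Hoxa13 had 0 UMIs, and a count of 0 allows up to 3 in a library. Hoxb13, Hoxd12 and Hoxd13 had 1 UMI each, Hoxc13 had 4, Hoxc12 had 8 and Hoxb1 had 9. Hoxa11 and Hoxd1 had 66 each. These near-silent genes lie at both ends of the clusters: groups 12 and 13, which pattern the tail end and the digits, with Hoxa11, and at the other end Hoxb1 and Hoxd1.

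The promoters of 4 genes are shown because these genes mark the contrasts that follow. Hoxb8 had the highest pooled level in oligodendrocyte- and astrocyte-like nuclei, Hoxa9 was higher in astrocyte- than in oligodendrocyte-like nuclei, Hoxd10 was highest in WT SNI, and Hoxa13 had no UMI. Each run is the 250 bases before the RefSeq start (GRCm38.p6), on the strand of the gene, and capitals mark the CG dinucleotides.
Hoxb8, chr11:96281655-96281904, plus strand: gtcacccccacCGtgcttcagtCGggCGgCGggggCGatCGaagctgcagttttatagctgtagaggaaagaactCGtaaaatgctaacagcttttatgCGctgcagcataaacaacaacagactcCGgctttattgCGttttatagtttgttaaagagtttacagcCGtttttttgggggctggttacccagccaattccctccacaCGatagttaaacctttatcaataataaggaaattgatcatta
Hoxa9, chr6:52227371-52227620, minus strand: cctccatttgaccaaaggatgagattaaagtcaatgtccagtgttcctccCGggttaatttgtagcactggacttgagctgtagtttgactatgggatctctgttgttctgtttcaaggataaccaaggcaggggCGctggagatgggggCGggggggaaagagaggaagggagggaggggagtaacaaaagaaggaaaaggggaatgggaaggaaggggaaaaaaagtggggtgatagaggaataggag
Hoxd10, chr2:74691641-74691890, plus strand: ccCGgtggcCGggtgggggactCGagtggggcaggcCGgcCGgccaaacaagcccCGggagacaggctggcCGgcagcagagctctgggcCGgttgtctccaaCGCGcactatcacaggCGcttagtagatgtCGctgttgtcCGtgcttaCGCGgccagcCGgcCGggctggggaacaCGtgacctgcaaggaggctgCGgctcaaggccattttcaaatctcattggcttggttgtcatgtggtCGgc
Hoxa13, chr6:52260881-52261130, minus strand: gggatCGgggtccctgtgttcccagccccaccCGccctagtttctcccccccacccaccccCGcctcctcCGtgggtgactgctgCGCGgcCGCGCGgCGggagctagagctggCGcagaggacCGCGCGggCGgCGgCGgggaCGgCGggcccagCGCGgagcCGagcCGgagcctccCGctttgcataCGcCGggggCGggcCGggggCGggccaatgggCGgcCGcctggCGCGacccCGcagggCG

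These windows held 12 CG in Hoxb8, 3 in Hoxa9, 20 in Hoxd10 and 35 in Hoxa13. The RefSeq table had 24 starts for 22 of the 39 genes. Their median was 12.5 CG per window, beside a median of 6 over all 32851 starts in the table. The densest of these 24 windows was that of Hoxa13, with no UMI, and Hoxd13, with 1 UMI, followed with 31. Genes without a start in the table, Hoxc6 and Hoxc10 among them, are not covered, and a link of CG count to level was not tested. The composite motif of PBX and HOX proteins, TGATNNAT on either strand, was in 16.7% of the Hox windows (4 of 24, in Hoxa2, Hoxb1, Hoxb8 and Hoxd11) and in 7.68% of all windows. The CCAAT box was in 58.3% of the Hox windows and 33.8% of all. The half-site of retinoic acid receptors, AGGTCA, was in 25% of the Hox windows (in Hoxb4, Hoxc4, Hoxd3, Hoxd4, Hoxd8 and Hoxd10) and in 14% of all. A match is a description of letters, not a site in use.

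Levels are given as CPM, the standard scaling of the UMIs of a gene to the total UMIs of the class and library, mitochondrial genes left out. UMIs are 3′ tags of nuclear RNA and were not divided by gene length, so an order of genes is an order of counted molecules. In excitatory neuron-like nuclei, with 10378 Hox UMIs in KO SNI, 9584 in WT SNI, 15977 in KO naive and 8978 in WT naive, groups 3 to 9 carried most of the signal. Group 6 was highest at 253 CPM pooled over the libraries, followed by group 3 at 225 and group 5 at 205. Group 10 had 54.7 CPM, group 11 had 4.49, and groups 12 and 13 had 0.0606 each. Inhibitory neuron-like nuclei had 42.8 CPM for group 10, 4.9 for group 11 and 0 for groups 12 and 13. In the map of levels by gene and class, the dark columns at the high end of each cluster run through all 6 classes.

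**Figure D1:**
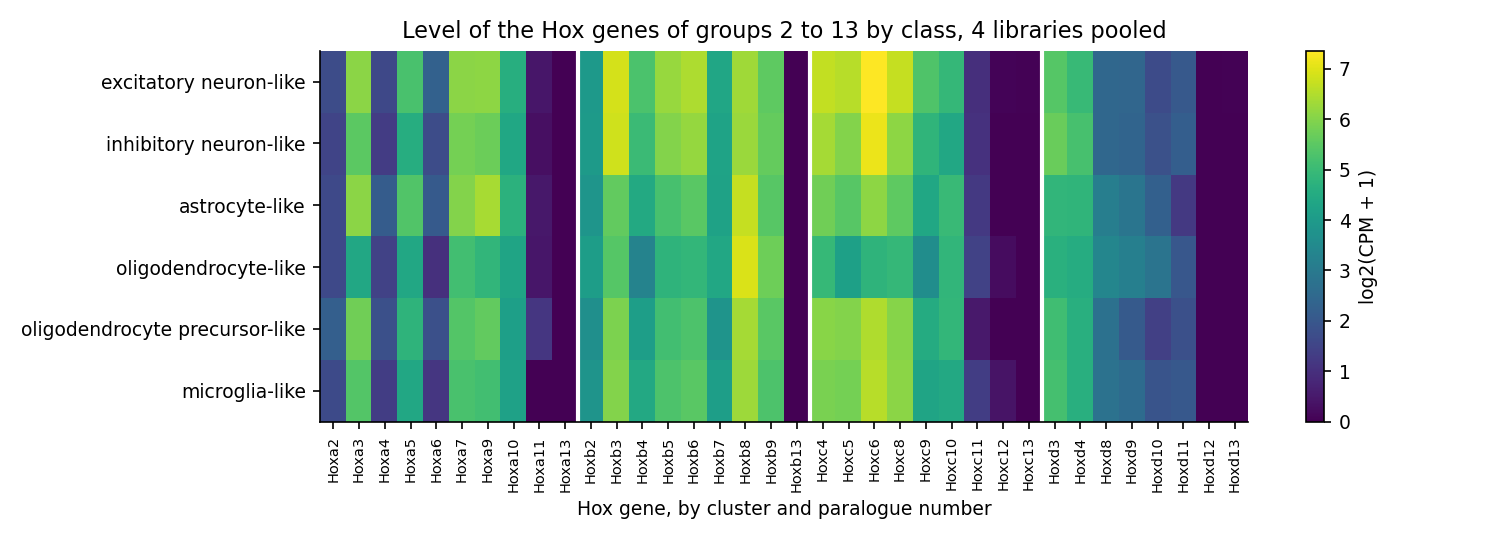
Level of the Hox genes of groups 2 to 13 in 6 classes of nuclei, as log2(CPM + 1) over the 4 libraries pooled; white lines part clusters a, b, c and d, and genes run from low to high paralogue number. The brightest cells are Hoxc6 in excitatory (163 CPM) and inhibitory (139 CPM) neuron-like nuclei, Hoxb8 is the brightest of the oligodendrocyte-like row (121 CPM), and groups 12 and 13 are at or near 0 in every class.

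Cluster c gave the highest levels in neurons. Hoxc6, which marks forelimb levels in the developing cord, stood at 156 CPM in KO SNI, 196 in WT SNI, 124 in KO naive and 215 in WT naive excitatory neuron-like nuclei. Hoxc4, at the head end of the cluster, stood at 91.5 CPM in KO SNI, 101 in WT SNI, 109 in KO naive and 97.4 in WT naive. Hoxc5, which with Hoxa5 is needed for phrenic motor neurons, had 97.1 CPM in KO SNI, 95.5 in WT SNI, 85.8 in KO naive and 101 in WT naive. Hoxc6 and Hoxc5 were lowest in KO naive and highest in WT naive, while Hoxc4 was highest in KO naive. Hoxc8, a gene of the cervical to thoracic border, had 93 CPM in KO SNI, 106 in WT SNI, 102 in KO naive and 120 in WT naive. Hoxc9, which sets thoracic motor neuron identity, was at 34.1 CPM in KO SNI, 41.3 in WT SNI, 38.3 in KO naive and 46.7 in WT naive. Hoxc10, a lumbar gene in the embryo, was at 23.5 CPM in KO SNI, 36.1 in WT SNI, 26.5 in KO naive and 32.3 in WT naive. From Hoxc8 on, levels were lower with each step toward the tail end of the cluster. Hoxc11 was at 0.383 CPM in KO SNI, 1.94 in WT SNI, 1.05 in KO naive and 0.656 in WT naive. In the annotation Hoxc5 spans Hoxc6, Hoxc8, Hoxc9 and Hoxc10 on the same strand, so the split of reads among these 5 genes is uncertain.

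In cluster b, Hoxb3, a gene of hindbrain and cervical levels, led in neurons with 106 CPM in KO SNI, 111 in WT SNI, 128 in KO naive and 113 in WT naive. Hoxb6 had 88.4 CPM in KO SNI, 87.9 in WT SNI, 82.3 in KO naive and 87.4 in WT naive. Hoxb8, whose loss in mice causes excessive grooming and altered pain responses, had 79.6 CPM in KO SNI, 82.5 in WT SNI, 83 in KO naive and 65.1 in WT naive. Hoxb6 was the most even of the 3 across the libraries, and Hoxb8 was lowest in WT naive. Hoxb5 had 71.7 CPM in KO SNI, 80.7 in WT SNI, 67.8 in KO naive and 83.6 in WT naive. Hoxb9 had 46.6 CPM in KO SNI, 45.4 in WT SNI, 47.2 in KO naive and 40.5 in WT naive, and Hoxb4, which also acts in blood stem cells, had 38.7 CPM in KO SNI, 38.5 in WT SNI, 32.8 in KO naive and 46.9 in WT naive. The lowest of the expressed genes of this cluster were Hoxb7 and Hoxb2. Hoxb7 had 20.9 CPM in KO SNI, 22.2 in WT SNI, 17.6 in KO naive and 19.3 in WT naive. Hoxb2, a hindbrain gene at its front limit, had 14.7 CPM in KO SNI, 14.3 in WT SNI, 13.3 in KO naive and 17.7 in WT naive. Across the 4 clusters 14 Hox genes have an antisense partner in the annotation, among them Hoxb2, Hoxb3, Hoxb5 and Hoxb6, and how the authors' counting used strand is not given in the sources used here.

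In cluster a, Hoxa3, Hoxa7 and Hoxa9 were the most abundant. Hoxa7 had 71.1 CPM in KO SNI, 74.8 in WT SNI, 53.1 in KO naive and 82.5 in WT naive. Hoxa9 had 65.8 CPM in KO SNI, 73.6 in WT SNI, 53.4 in KO naive and 93.3 in WT naive. Hoxa3, which in mice is needed for the thymus and parathyroid, had 76.3 CPM in KO SNI, 66 in WT SNI, 60.7 in KO naive and 69.2 in WT naive. For Hoxa7 and Hoxa9 the KO naive library was lowest and the WT naive library highest. Hoxa5, required for the embryonic lung and for phrenic motor neurons, had 33.5 CPM in KO SNI, 35.7 in WT SNI, 40.9 in KO naive and 35.6 in WT naive. Hoxa10, a lumbar gene of the embryo, had 26.6 CPM in KO SNI, 25.8 in WT SNI, 20.8 in KO naive and 23.6 in WT naive. The 3 remaining genes of the cluster were low. Hoxa6 had 5.75 CPM in KO SNI, 3.43 in WT SNI, 2.83 in KO naive and 4.26 in WT naive, Hoxa2, a hindbrain and branchial arch gene, had 1.4 CPM in KO SNI, 2.69 in WT SNI, 2.75 in KO naive and 1.97 in WT naive, and Hoxa4 had 2.81 CPM in KO SNI, 1.64 in WT SNI, 1.62 in KO naive and 2.3 in WT naive. The model of Hoxa3 spans Hoxa4, Hoxa5 and Hoxa6 on the same strand, so the split among these 4 genes is uncertain too.

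Cluster d was the least abundant. Hoxd3 had 41 CPM in KO SNI, 37.5 in WT SNI, 49.1 in KO naive and 32.6 in WT naive. Hoxd4 had 27.8 CPM in KO SNI, 29.8 in WT SNI, 31.5 in KO naive and 28.5 in WT naive. These 2 genes share exons in the annotation, so their reads cannot be parted with confidence. Every gene of the cluster beyond them stayed under 6 CPM. Hoxd8 had 3.07 CPM in KO SNI, 4.63 in WT SNI, 5.66 in KO naive and 3.93 in WT naive, and Hoxd9 had 4.6 CPM in KO SNI, 4.63 in WT SNI, 4.69 in KO naive and 3.28 in WT naive. Hoxd10, a lumbar motor neuron gene, had 1.79 CPM in KO SNI, 2.84 in WT SNI, 2.35 in KO naive and 1.8 in WT naive, and Hoxd11, a gene of the limb and sacral levels, had 1.92 CPM in KO SNI, 4.48 in WT SNI, 3.72 in KO naive and 1.97 in WT naive. For Hoxd10 and Hoxd11 the WT SNI library was highest. These levels rest on 73 UMIs for Hoxd10 and 103 for Hoxd11 over the libraries together, so the order of libraries is uncertain.

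The sum of the Hox genes was highest in excitatory neuron-like nuclei and lowest in oligodendrocyte-like nuclei. Excitatory neuron-like nuclei had 1326 CPM in KO SNI, 1430 in WT SNI, 1292 in KO naive and 1472 in WT naive. Inhibitory neuron-like nuclei had 1088 CPM in KO SNI, 1211 in WT SNI, 1098 in KO naive and 1173 in WT naive. Astrocyte-like nuclei had 957.3 CPM in KO SNI, 931.4 in WT SNI, 961.3 in KO naive and 942 in WT naive, all within each other's intervals. Oligodendrocyte-like nuclei had 572.6 CPM in KO SNI, 687.5 in WT SNI, 756.1 in KO naive and 510.4 in WT naive. Oligodendrocyte precursor-like nuclei had 931 CPM in KO SNI, 861.5 in WT SNI, 913.5 in KO naive and 835.8 in WT naive. Microglia-like nuclei had 822.6 CPM in KO SNI, 884.1 in WT SNI, 946.4 in KO naive and 716.8 in WT naive. In all 4 libraries the order was excitatory, then inhibitory, then astrocyte-like nuclei, with oligodendrocyte-like nuclei lowest of these 6 classes. Ependymal-like nuclei, a small class of 43 to 137 nuclei per library, had 1085 CPM in KO SNI, 1350 in WT SNI, 1206 in KO naive and 1256 in WT naive. That was above the inhibitory neuron-like level in WT SNI, KO naive and WT naive, so not every class outside the neurons was lower.

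**Figure D2:**
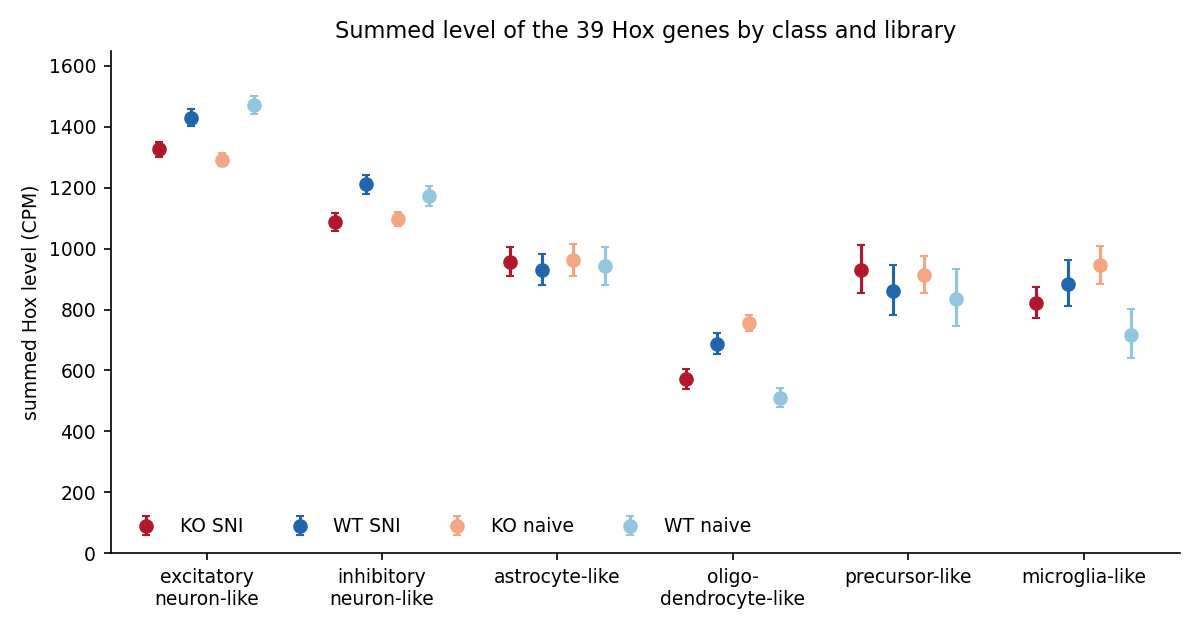
Summed level of the 39 Hox genes (CPM) in each class and library, with exact Poisson 95% intervals. The 4 astrocyte-like values lie between 931 and 961 CPM, and the oligodendrocyte-like values spread from 510 to 756.

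The Hox signal in microglia-like nuclei went with transcripts of neurons. The 6 neuron markers (Snap25, Rbfox3, Syt1, Snhg11, Meg3 and Stmn2) were all present in that class, and none was at 0. Their sum in microglia-like nuclei was 69% of the neurons' level in KO SNI, 58.4% in WT SNI, 77.9% in KO naive and 42.4% in WT naive. The Hox sum was 66.7%, 65.9%, 77.7% and 53.2% of the neurons' level in the same 4 libraries. In astrocyte-like nuclei the neuron markers were far lower, at 16.9% in KO SNI, 14.4% in WT SNI, 29.4% in KO naive and 9.66% in WT naive. Their Hox sum was at 77.6%, 69.5%, 78.9% and 69.9% of the neurons' level. Oligodendrocyte-like nuclei had neuron markers at 21.2%, 18.9%, 35.7% and 12.9% and a Hox sum at 46.4%, 51.3%, 62.1% and 37.8%, in the same order of libraries. The Hox sum of oligodendrocyte- and microglia-like nuclei and their neuron markers were both highest in KO naive and lowest in WT naive. The part of neuronal transcripts in these 2 Hox sums was not tested.

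**Figure D3:**
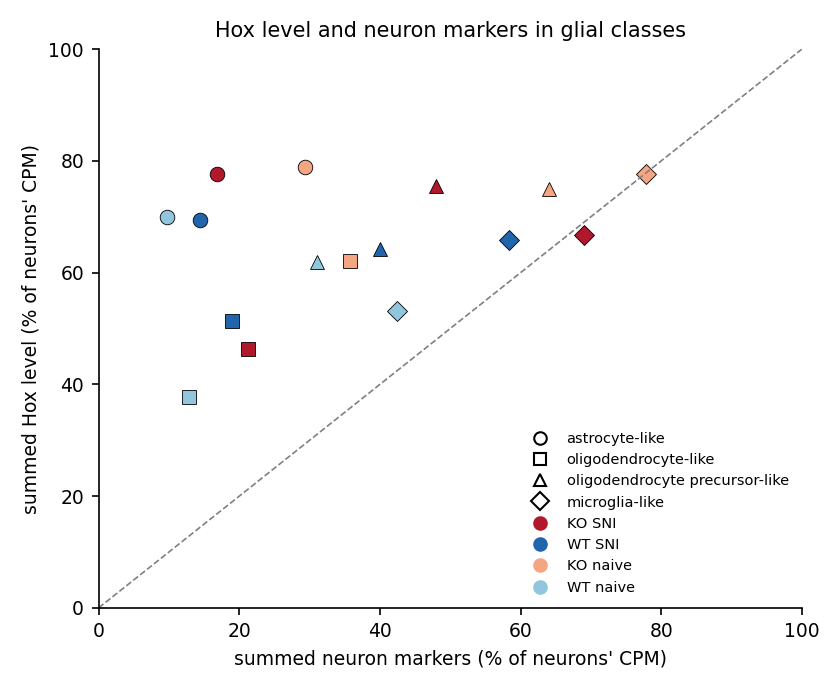
Summed Hox level against the summed level of 6 neuron markers in 4 glial classes of each library, both as percent of the level in excitatory and inhibitory neuron-like nuclei of the same library; the dashed line marks equal percent. Microglia-like points lie closest to the line, while astrocyte-like points lie at 69.5% to 78.9% Hox with 9.66% to 29.4% neuron markers.

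After every nucleus was thinned to 1000 UMIs, the share with at least 1 Hox UMI was again higher in neurons than in glia, except in oligodendrocyte precursor-like nuclei of KO SNI. It was 71.2% in KO SNI, 74.5% in WT SNI, 70.4% in KO naive and 75.5% in WT naive excitatory neuron-like nuclei and 64.9% in KO SNI, 69.9% in WT SNI, 67% in KO naive and 68.8% in WT naive inhibitory neuron-like nuclei. Astrocyte-like nuclei had 60.8% in KO SNI, 59.5% in WT SNI, 59.7% in KO naive and 60.3% in WT naive, each above the microglia-like share of its library. The intervals of these shares overlapped in every library, such as 55.5 to 65.8 in astrocyte- and 51.6 to 61.6 in microglia-like nuclei of KO SNI. Microglia-like nuclei, at a median depth of 713 to 926 UMIs against 799 to 1112 in astrocyte-like nuclei, had 56.7% in KO SNI, 53% in WT SNI, 56.2% in KO naive and 46.5% in WT naive. Oligodendrocyte-like nuclei had 37.1% in KO SNI, 41.4% in WT SNI, 49.2% in KO naive and 27.3% in WT naive, below the microglia-like share in every library, so no expression is read from these shares. Microglia-like nuclei held more neuron transcripts than this class, as given above, so the share is not one of matched background. Without thinning, the shares were 77.6% to 86.3% in excitatory, 54.8% to 65.6% in astrocyte-, 35% to 62.9% in microglia- and 29.8% to 49.9% in oligodendrocyte-like nuclei. Thinning left out most oligodendrocyte-like nuclei, 2713 of 2923 in KO SNI, 2167 of 2578 in WT SNI, 3421 of 4785 in KO naive and 2709 of 2947 in WT naive. It also left out 1518 of 1880, 590 of 1308, 394 of 1200 and 599 of 952 astrocyte-like nuclei in the same libraries. Microglia-like nuclei lost 479 of 876, 304 of 468, 341 of 615 and 292 of 406, so these shares describe the deeper nuclei.

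Astrocyte- and oligodendrocyte-like nuclei differed from neurons in which Hox genes they held, not only in how much. Cluster c made up 27.5% of the Hox UMIs of astrocyte-like and 21.6% of those of oligodendrocyte-like nuclei, against 39% in excitatory neuron-like nuclei. Cluster a made up 30.3% in astrocyte-like nuclei, against 20% in excitatory neuron-like nuclei. Cluster b made up 47.8% in oligodendrocyte-like nuclei, against 34.8%. In microglia-like nuclei the 4 clusters had 18.1%, 36.1%, 36.8% and 8.99%, from a to d, against 20%, 34.8%, 39% and 6.32% in excitatory neuron-like nuclei. Oligodendrocyte precursor-like nuclei, at 21.8%, 33.3%, 37% and 7.89%, were also near the make-up of excitatory neuron-like nuclei. Neuron markers in the precursor-like class were at 48% of the neurons' level in KO SNI, 40% in WT SNI, 64.1% in KO naive and 31.1% in WT naive. The part of neuronal transcripts in this make-up was not tested.

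Hoxb8 had the highest pooled level of the Hox genes in both glial classes. Oligodendrocyte-like nuclei had 118 CPM in KO SNI, 148 in WT SNI, 125 in KO naive and 88.3 in WT naive, and astrocyte-like nuclei 93.4 CPM in KO SNI, 107 in WT SNI, 112 in KO naive and 98.4 in WT naive. Both were above the excitatory neuron-like level of the same library in 4 of 4 libraries, with a pooled log2 ratio of 0.62 (0.53 to 0.72) in oligodendrocyte- and 0.38 (0.24 to 0.51) in astrocyte-like nuclei. In microglia-like nuclei the same ratio was -0.04 (-0.23 to 0.15).

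Hoxa9 was at 89.6 CPM in KO SNI, 84.7 in WT SNI, 66.4 in KO naive and 99.5 in WT naive astrocyte-like nuclei. That exceeded the excitatory neuron-like level in 4 of 4 libraries, with a pooled log2 ratio of 0.31 (0.16 to 0.45), while the ratio was -0.99 (-1.28 to -0.71) in microglia- and -1.29 (-1.47 to -1.12) in oligodendrocyte-like nuclei. Hoxa9 thus parted the 2 glial classes. Hoxa3 did too: its pooled log2 ratio to excitatory neuron-like nuclei was -0.01 (-0.18 to 0.15) in astrocyte- and -1.72 (-1.93 to -1.52) in oligodendrocyte-like nuclei. Hoxa7 had -0.11 (-0.28 to 0.06) in astrocyte- and -0.97 (-1.13 to -0.81) in oligodendrocyte-like nuclei.

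The cluster c genes lay at the other end. Hoxc6 was at 25.2 CPM in KO SNI, 20.7 in WT SNI, 33.1 in KO naive and 20.5 in WT naive oligodendrocyte-like nuclei, a pooled log2 ratio of -2.61 (-2.79 to -2.44) to excitatory neuron-like nuclei. In astrocyte-like nuclei it was at 65.2 CPM in KO SNI, 69.2 in WT SNI, 60.6 in KO naive and 85.1 in WT naive, with a ratio of -1.25 (-1.41 to -1.10). In microglia-like nuclei the ratio was -0.79 (-0.97 to -0.63). Hoxc6 was therefore lower in oligodendrocyte- than in microglia-like nuclei. Hoxc5 had -2.46 (-2.68 to -2.24), Hoxb4 -2.13 (-2.44 to -1.82) and Hoxc4 -1.78 (-1.95 to -1.61) in oligodendrocyte-like nuclei. Hoxc10 broke the pattern of its cluster, at -0.06 (-0.25 to 0.13) in oligodendrocyte- and 0.10 (-0.15 to 0.34) in astrocyte-like nuclei.

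Hoxd8 and Hoxd9 were low in every class and higher in oligodendrocyte-like than in excitatory neuron-like nuclei. Hoxd8 was at 9.53 CPM in KO SNI, 5.51 in WT SNI, 10.9 in KO naive and 9.81 in WT naive oligodendrocyte-like nuclei, a pooled log2 ratio of 1.05 (0.67 to 1.42) to excitatory neuron-like nuclei on 102 and 149 UMIs. Hoxd9 was at 8.58 CPM in KO SNI, 9.65 in WT SNI, 7.78 in KO naive and 6.07 in WT naive, with a ratio of 0.86 (0.46 to 1.25) on 87 and 145 UMIs. Of the 23 genes with at least 200 UMIs over both classes, 3 were above 1.5-fold and higher in all 4 libraries in oligodendrocyte-like nuclei (Hoxb8, Hoxd8 and Hoxd9), and 14 were below it and lower in all 4. By the same rule 24.7% of all genes were higher and 22.6% lower in that class. Hoxd10, left out of the 23 by the 200 UMI limit, was also higher there in all 4 libraries. Its pooled log2 ratio was 1.47 (0.97 to 1.97) on 67 and 73 UMIs. Astrocyte-like nuclei had 0 above and 10 below of 21 genes, namely Hoxb3, Hoxb4, Hoxb5, Hoxb6, Hoxc4, Hoxc5, Hoxc6, Hoxc8, Hoxc9 and Hoxd3, beside 21% of all genes higher and 21.4% lower. Inhibitory neuron-like nuclei had 0 above and 3 below of 23, which were Hoxa3, Hoxa5 and Hoxc8, beside 4.71% of all genes higher and 5.79% lower. Oligodendrocyte precursor-like nuclei had 0 above and 10 below of 21, beside 9.02% and 9.91% of all genes, and microglia-like nuclei 0 above and 13 below of 21, beside 15.4% and 10.5%.

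**Figure D4:**
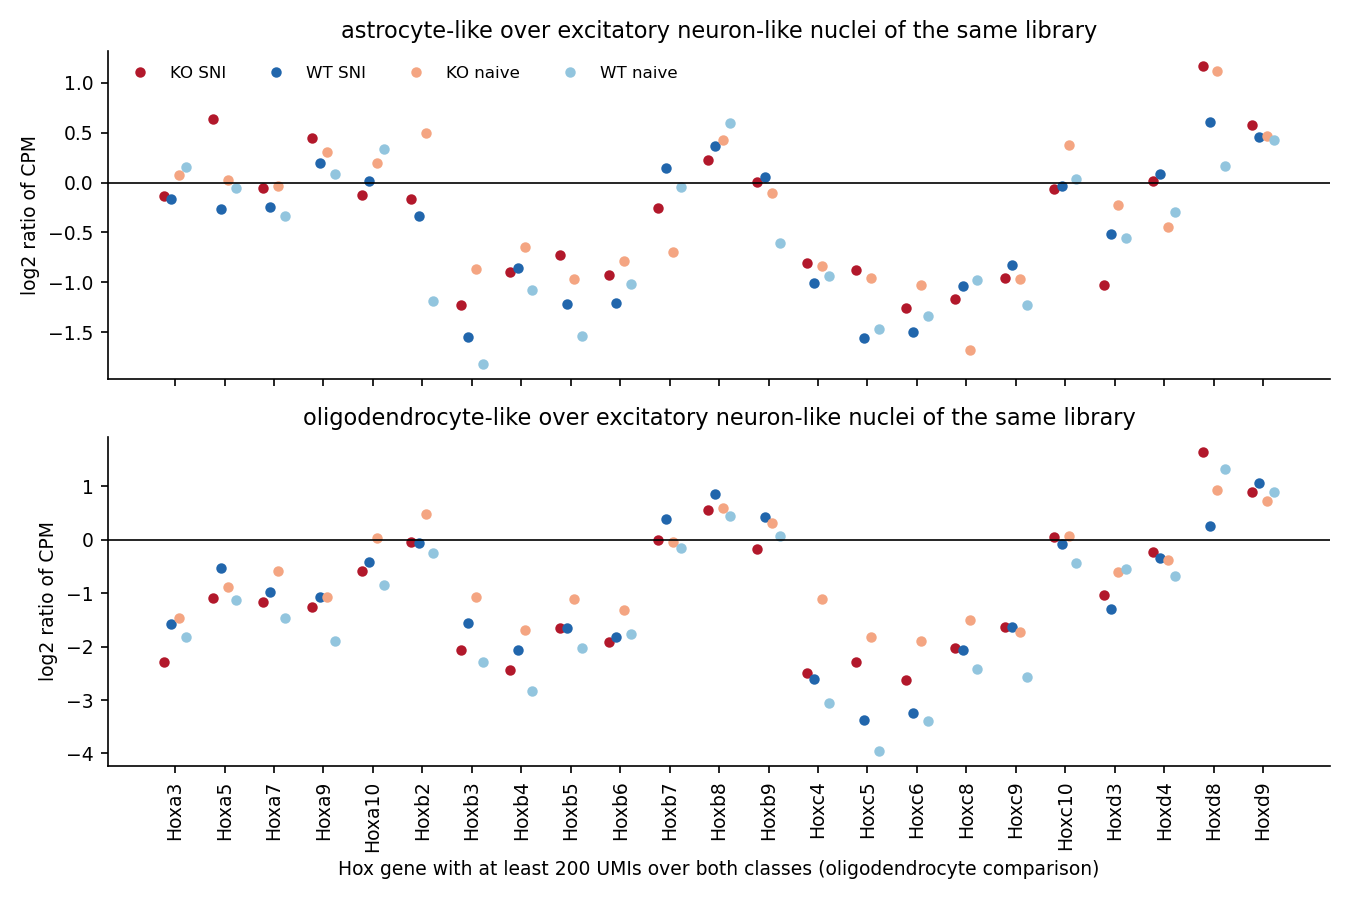
Log2 ratio of CPM in astrocyte-like (top) and oligodendrocyte-like (bottom) nuclei over excitatory neuron-like nuclei of the same library, for 23 Hox genes; each dot is 1 library. Hoxb8, Hoxd8 and Hoxd9 lie above 0 in all 4 libraries in both panels, and Hoxc4 to Hoxc9 lie below 0 in both.

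The make-up by paralogue group followed from these genes. Groups 10 to 13 held 8.76% (8.12 to 9.44) of the Hox UMIs in oligodendrocyte-, 6.68% (6 to 7.4) in astrocyte-, 4.2% (3.95 to 4.46) in inhibitory and 4.36% (4.17 to 4.55) in excitatory neuron-like nuclei, the libraries pooled. The mean paralogue number, weighted by UMIs, was 6.58, 6.30, 5.84 and 5.91 in the same classes. The total of groups 10 to 13 itself was 48.6 CPM in KO SNI, 73.1 in WT SNI, 59.8 in KO naive and 46.7 in WT naive oligodendrocyte-like nuclei, 52 CPM in KO SNI, 69.9 in WT SNI, 67.1 in KO naive and 67.4 in WT naive astrocyte-like nuclei, and 54.5 CPM in KO SNI, 72.4 in WT SNI, 54.8 in KO naive and 60.3 in WT naive excitatory neuron-like nuclei. Inhibitory neuron-like nuclei had 42.1 CPM in KO SNI, 55.4 in WT SNI, 50.2 in KO naive and 41.2 in WT naive. Microglia-like nuclei had 48 CPM in KO SNI, 44.7 in WT SNI, 48.5 in KO naive and 34.1 in WT naive, on 15 to 59 UMIs, below the excitatory neuron-like level in each library.

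Neuron clusters, made without Hox genes, differed in their Hox sum. Cluster 5, an excitatory cluster led by Unc5cl, Lmo3 and Ptger3, had 1741 CPM in KO SNI, 1793 in WT SNI, 1642 in KO naive and 1990 in WT naive, the highest of the 14 named neuron clusters in each library. Cluster 20, an excitatory cluster led by Cpne4, Dach2 and C1qtnf7, had 820.7, 887.9, 905.8 and 840.9 CPM in those libraries. Of the Hox genes compared by neuron cluster, the libraries pooled, Hoxc4 stood at 147 CPM in cluster 5 and 53.4 in cluster 20, and Hoxc6 at 245 and 73.7. Hoxc10 stood at 37.7 and 19.3 CPM, Hoxb3 at 124 and 82.3, Hoxd11 at 4.45 and 0.482, and Hoxd10 at 2 and 2.89. Between clusters 5 and 20 Hoxb8 was nearly level, at 77.5 and 73.2 CPM. Over the 14 named neuron clusters it ran from 66.4 CPM in inhibitory cluster 10 to 103 in inhibitory cluster 25.

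Cluster 0, the largest cluster with 15790 nuclei, was named by no marker list, although its summed neuron markers (20259, 21402, 21021 and 21503 CPM in KO SNI, WT SNI, KO naive and WT naive) were above those of excitatory neuron-like nuclei (17455, 18647, 18136 and 18969 CPM). Its Hox make-up leaned to cluster c, with 52.8% of its Hox UMIs. Hoxc6 stood at 197 CPM in KO SNI, 241 in WT SNI, 159 in KO naive and 270 in WT naive, and Hoxb8 at 37.2 CPM in KO SNI, 50.3 in WT SNI, 48.6 in KO naive and 35.6 in WT naive. Hoxd11 reached 8.19 CPM in KO SNI, 13.7 in WT SNI, 8.22 in KO naive and 8.3 in WT naive cluster 0 nuclei, and 7.61 CPM in KO SNI, 15.4 in WT SNI, 11.3 in KO naive and 9.63 in WT naive cluster 7, an unnamed cluster led by D130009I18Rik, D130079A08Rik and Cdh23. In excitatory neuron-like nuclei Hoxd11 was between 1.92 and 4.48 CPM, so both clusters were above it in all 4 libraries.

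UMIs from distant parts of the clusters met in the same droplets. Of excitatory neuron-like nuclei with a UMI of groups 9 to 13, 59.9% in KO SNI, 64.3% in WT SNI, 68.8% in KO naive and 61.6% in WT naive also had a UMI of groups 1 to 5. Of the nuclei without a group 9 to 13 UMI, 50.7%, 58.8%, 61% and 55.7% had one. Microglia-like nuclei, which should lack Hox transcripts, had a UMI of groups 1 to 5 in 41.8% in KO SNI, 44.8% in WT SNI, 53.8% in KO naive and 42.2% in WT naive of the nuclei with a UMI of groups 9 to 13, and in 29.2%, 24.7%, 35.1% and 14.1% of those without. The median depth was 1230, 1557, 1641 and 1410 UMIs in excitatory neuron-like and 866, 829, 926 and 713 in microglia-like nuclei of these libraries. Up to 11 different Hox genes were seen in 1 excitatory neuron-like and also in 1 microglia-like droplet. The shares were not adjusted for depth, the part of free RNA and of remaining doublets was not tested, and no expression of both ends by 1 neuron is read from them.

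KO SNI against WT SNI asks what loss of Gpr37l1 changes in injured mice. Genes at the tail end were lower in KO SNI. Called here means a ratio past 1.5-fold with at least 50 UMIs over the pair. Over all kept nuclei, 4 of 29 Hox genes were called, all lower (Hoxc10, Hoxc11, Hoxd10 and Hoxd11), with 6.5% of 17806 genes called. Hoxc10 (chr15:102966796-102971893, plus strand, sharing exon sequence with the Hoxc5 model) had 22.6 CPM in KO SNI and 36 in WT SNI. Hoxd11 had 4.16 CPM in KO SNI and 8.37 in WT SNI, and Hoxd10 2.7 CPM in KO SNI and 5.08 in WT SNI. Hoxc11 had 0.628 CPM in KO SNI and 2.22 in WT SNI. Hoxa10, the other abundant gene of group 10, was not called, at 20.1 CPM in KO SNI and 21.3 in WT SNI. Without cluster 1 the same 4 genes were called.

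The sum of groups 10 to 13 over all kept nuclei was 50.7 CPM in KO SNI and 73.7 in WT SNI, a log2 ratio of -0.54 (-0.62 to -0.46). The ratio was -0.41 (-0.60 to -0.22) in excitatory, -0.40 (-0.67 to -0.13) in inhibitory neuron-like, -0.43 (-0.86 to 0.01) in astrocyte- and -0.59 (-0.96 to -0.22) in oligodendrocyte-like nuclei. Of 22 clusters with at least 50 nuclei in both libraries and at least 50 such UMIs, 20 were lower in KO SNI; the exceptions were excitatory cluster 8 and the microglia-like cluster 14. Clusters of 1 library share the same dissected tissue and are no replicates. How far along the cord each dissection reached is not given in the sources used here, and level and genotype cannot be told apart.

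In excitatory neuron-like nuclei, 3 of 24 Hox genes were called in this pair, with 4.79% of all genes called. Hoxc10 was lower at -0.62 (-0.90 to -0.34). Hoxd8 was called lower at -0.59 (-1.43 to 0.22) on 24 and 31 UMIs, and Hoxa6 higher at 0.74 (-0.01 to 1.54) on 45 and 23. In inhibitory neuron-like nuclei 1 of 21 was called, with 4.76% of all genes, and it was again Hoxc10, at -0.72 (-1.15 to -0.30). In astrocyte-like nuclei 3 of 20 were called, with 8.79% of all genes. Hoxc10 had -0.65 (-1.31 to 0.00), while Hoxa5 had 0.81 (0.26 to 1.38) and Hoxc5 0.70 (0.16 to 1.25). In oligodendrocyte-like nuclei 2 of 20 were called, with 8.17% of all genes: Hoxa5 at -0.66 (-1.33 to -0.01) and Hoxc5 at 1.12 (0.32 to 1.97). Hoxc10 was the gene called lower in 3 of these 4 classes.

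**Figure D5:**
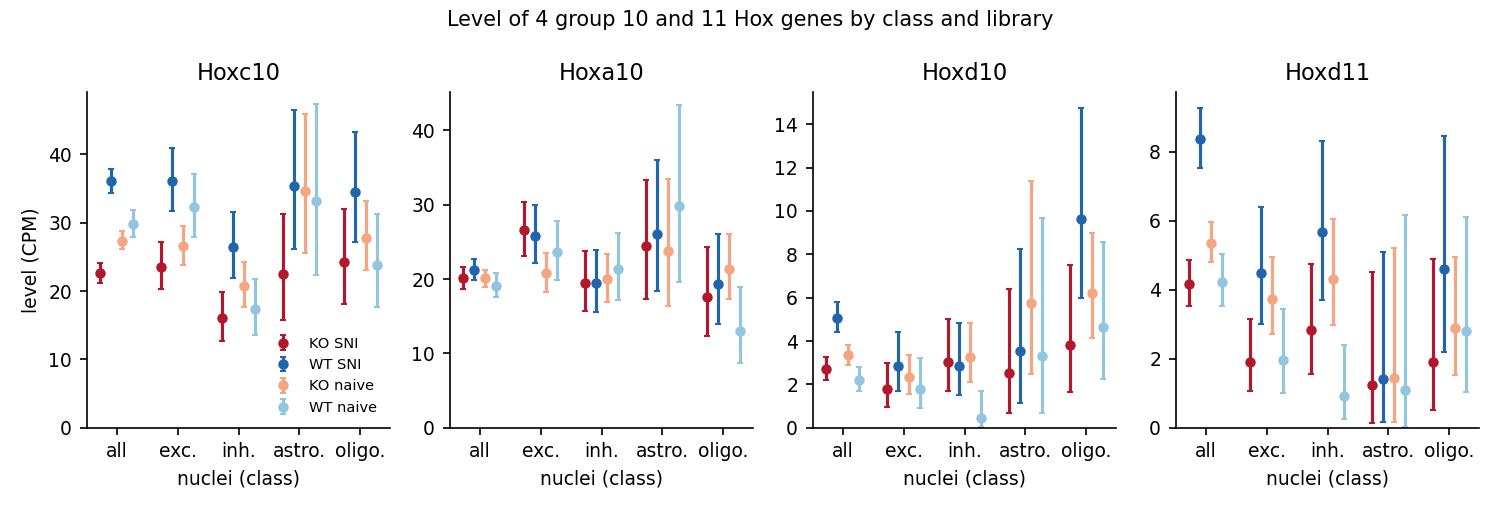
Level (CPM, with exact Poisson 95% intervals) of Hoxc10, Hoxa10, Hoxd10 and Hoxd11 over all kept nuclei and in excitatory neuron-, inhibitory neuron-, astrocyte- and oligodendrocyte-like nuclei of each library. Over all kept nuclei WT SNI is highest for Hoxc10, Hoxd10 and Hoxd11, while the 4 libraries lie between 19.1 and 21.3 CPM for Hoxa10.

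The Hox sum moved less in this pair. The log2 ratio of KO SNI to WT SNI was -0.11 (-0.15 to -0.07) in excitatory and -0.15 (-0.21 to -0.10) in inhibitory neuron-like nuclei. It was 0.04 (-0.07 to 0.15) in astrocyte-like and -0.26 (-0.37 to -0.15) in oligodendrocyte-like nuclei. The median over the 24 Hox genes in excitatory neuron-like nuclei was -0.07, beside -0.01 over all genes.

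KO naive against WT naive asks the same without injury. Here Hoxc6 and Hoxa7 were lower in both classes of KO naive neurons and Hoxa9 in the excitatory class, while the sum of groups 10 to 13 over all kept nuclei was 57.7 CPM in KO naive and 56.7 in WT naive. In excitatory neuron-like nuclei 6 of 25 Hox genes were called, with 18.1% of all genes called. Hoxc6 had 124 CPM in KO naive and 215 in WT naive, a log2 ratio of -0.80 (-0.90 to -0.69). Hoxa9 had a ratio of -0.81 (-0.97 to -0.64), Hoxa7 -0.64 (-0.81 to -0.47) and Hoxa6 -0.59 (-1.36 to 0.20). Hoxd3 was called higher, at 0.59 (0.36 to 0.83), and so was Hoxd11, at 0.92 (-0.02 to 1.97) on 46 and 12 UMIs. In inhibitory neuron-like nuclei 3 of 22 were called, with 16.7% of all genes. They were Hoxc6 at -0.77 (-0.91 to -0.63), Hoxa7 at -0.67 (-0.90 to -0.45) and Hoxd8 at 1.26 (0.25 to 2.42) on 43 and 10 UMIs. Over all kept nuclei 2 of 29 were called, Hoxc6 lower and Hoxd10 higher, with 20.5% of all genes, and without cluster 1 Hoxc6 alone. The count over all kept nuclei is thus below the share of all genes called, and those in inhibitory and excitatory neuron-like nuclei are near it. Of the excitatory calls, Hoxa6 and Hoxd11 have intervals that include 0. No excess or lack of Hox genes is read from these counts.

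In astrocyte-like nuclei 4 of 17 Hox genes were called in the naive pair, with 26.6% of all genes. Hoxb3 had 70 CPM in KO naive and 32.1 in WT naive, a log2 ratio of 1.13 (0.52 to 1.78). Hoxd3 had 0.92 (0.17 to 1.73), Hoxb9 0.73 (0.03 to 1.48) and Hoxc8 -0.94 (-1.54 to -0.34). In oligodendrocyte-like nuclei 8 of 22 were called, all higher, with 27.2% of all genes. Hoxc4 had 50.3 CPM in KO naive and 11.7 in WT naive, a ratio of 2.11 (1.51 to 2.76). Hoxc5 had 1.89 (1.08 to 2.81) and Hoxb3 1.37 (0.93 to 1.83), and Hoxa10, Hoxb4, Hoxb5, Hoxc6 and Hoxc8 had 0.62 to 0.71. Neuron markers in that class were also higher, at 6512 CPM in KO naive and 2479 in WT naive, and the KO naive nuclei came mostly from cluster 6. With cluster 2 alone the ratio of the Hox sum was 0.26, on 308 nuclei in KO naive, against 0.57 (0.47 to 0.67) with both clusters. Cluster 3, left unnamed, held oligodendrocyte markers at 11316 to 13337 CPM, with 1435 nuclei in KO naive and 1631 in WT naive. Its Hox sum was also higher in KO naive, at 581.3 CPM against 385.2 in WT naive, beside neuron markers of 4799 and 1535 CPM. The part of clusters and of neuron markers in these ratios was not tested. The ratio of the Hox sum was -0.19 (-0.22 to -0.15) in excitatory, -0.09 (-0.15 to -0.04) in inhibitory neuron-like and 0.03 (-0.10 to 0.16) in astrocyte-like nuclei.

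KO SNI against KO naive asks about injury in the knockout. Over all kept nuclei 4 of 29 Hox genes were called, with 17.9% of all genes: Hoxa6 was higher in KO SNI, and Hoxa2, Hoxc11 and Hoxd8 were lower. Without cluster 1, Hoxd8 was no longer called. The sum of groups 10 to 13 was 50.7 CPM in KO SNI and 57.7 in KO naive, a log2 ratio of -0.19 (-0.27 to -0.11), and 21 of 27 clusters were lower in KO SNI. In excitatory neuron-like nuclei 3 of 25 were called, with 12.2% of all genes. They were Hoxa6 at 1.02 (0.35 to 1.70), Hoxd8 at -0.89 (-1.62 to -0.20) and Hoxd11 at -0.96 (-1.91 to -0.09). In inhibitory neuron-like nuclei none of 23 was called, with 11.8% of all genes. In astrocyte-like nuclei 3 of 19 were called, with 18.1% of all genes: Hoxb3 at -0.63 (-1.09 to -0.18), Hoxc10 at -0.62 (-1.28 to 0.03) and Hoxd3 at -1.06 (-1.73 to -0.42). In oligodendrocyte-like nuclei 4 of 23 were called lower, with 19.7% of all genes: Hoxb3, Hoxc4, Hoxc8 and Hoxd3, at -1.63 to -0.66.

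WT SNI against WT naive asks about injury in wild-type mice. Over all kept nuclei 4 of 29 Hox genes were called, all higher in WT SNI, with 7.61% of all genes. Hoxb8 had 84.9 CPM in WT SNI and 54.9 in WT naive. Hoxd11 had 8.37 CPM in WT SNI and 4.23 in WT naive, Hoxd10 5.08 CPM in WT SNI and 2.22 in WT naive, and Hoxc11 2.22 CPM in WT SNI and 1.14 in WT naive. Hoxc10 had 36 CPM in WT SNI and 29.8 in WT naive. Without cluster 1, Hoxb8 had 76.3 CPM in WT SNI and 54.7 in WT naive and was no longer called, while Hoxc11, Hoxd10 and Hoxd11 were. This pair and KO SNI to WT SNI share the WT SNI library, and the sum of groups 10 to 13 over all kept nuclei was highest there and lowest in KO SNI. The sum of groups 10 to 13 had a log2 ratio of 0.38 (0.29 to 0.46) in this pair, with 15 of 19 clusters higher in WT SNI, and 0.03 (-0.06 to 0.11) for KO naive to WT naive, which shares no library with KO SNI to WT SNI. In excitatory neuron-like nuclei none of 23 was called, with 6.17% of all genes. In inhibitory neuron-like nuclei 2 of 21 were called, with 6.1% of all genes: Hoxb8 at 0.59 (0.36 to 0.81) and Hoxc10 at 0.61 (0.18 to 1.05). In astrocyte-like nuclei 1 of 20 was called, Hoxb9 at 0.83 (0.14 to 1.57), with 12.9% of all genes. In oligodendrocyte-like nuclei 4 of 18 were called higher, with 12.1% of all genes: Hoxa5, Hoxb3, Hoxb7 and Hoxb8, at 0.60 to 0.75. The Hox sum had a ratio of 0.43 (0.32 to 0.54) in that class, beside neuron markers of 3588 CPM in WT SNI and 2479 in WT naive.

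The other genes of the pathway were taken in lists chosen by role, and their calls are over all kept nuclei unless a class is named. The cofactors of the TALE family, homeodomain proteins that bind DNA together with Hox proteins, had 0 of 9 genes called over all kept nuclei in each of the 4 pairs. Of all genes, 6.5% were called for KO SNI to WT SNI, 20.5% for KO naive to WT naive, 17.9% for KO SNI to KO naive and 7.61% for WT SNI to WT naive. With 9 genes, 0 called is not read as less than these shares. Pbx3 had 253 CPM in KO SNI, 237 in WT SNI, 275 in KO naive and 210 in WT naive. Meis1 had 186, 168, 184 and 172 CPM in the same libraries. Both were higher in each knockout library than in its wild-type partner, by less than 1.5-fold. By class, the cofactors with the largest ratios were Pknox2 (1.47) and Pbx4 (1.46) in oligodendrocyte-like and Meis2 (1.14) in inhibitory neuron-like nuclei, all as log2 of KO naive to WT naive.

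Polycomb and Trithorax proteins keep Hox genes silent or active through cell divisions. Of 19 such genes, 1 was called over all kept nuclei, Ring1, lower in KO naive than in WT naive, where 20.5% of all genes were called. Kmt2a, a Trithorax methyltransferase, was the most abundant with 200 CPM in KO SNI, 199 in WT SNI, 220 in KO naive and 198 in WT naive. Of the genes that act upstream of Hox genes, mainly through retinoic acid, Cdx1, Cdx2 and Cdx4 had 0 UMIs. Crabp1, a retinoic acid binding protein, was called lower in KO SNI than in WT SNI and higher in WT SNI than in WT naive, and Rarg, a retinoic acid receptor, lower in KO naive than in WT naive. Crabp1 was 1 of 9 genes tested in each of its pairs, with 6.5% and 7.61% of all genes called. Rarg was 1 of 10 tested, with 20.5% of all genes called. The Crabp1 calls include cluster 1, with 4945 nuclei in WT SNI, 235 in KO SNI and 119 in WT naive, and were not repeated without it. Rarb, the most abundant receptor, had 55.6 CPM in KO SNI, 50 in WT SNI, 55.3 in KO naive and 53.6 in WT naive.

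The noncoding transcripts of the Hox clusters went with KO naive. Of 8 tested, 4 were called lower in KO naive than in WT naive over all kept nuclei (Hoxd3os1, Hoxaas3, Hoxb5os and Hoxb3os), where 20.5% of all genes were called. Hoxd3os1 had 34.3 CPM in KO SNI, 35.4 in WT SNI, 22 in KO naive and 36.9 in WT naive. Hoxaas3, which is antisense to genes from Hoxa3 to Hoxa7, had 26.7, 26, 15.4 and 29.1 CPM in these libraries. For both, KO naive was lowest and the other 3 libraries lay close together. Hoxa11os was the 1 noncoding transcript called lower in KO SNI than in WT SNI, and higher in WT SNI than in WT naive. Each of these pairs had 8 tested, with 6.5% and 7.61% of all genes called. Both calls include cluster 1, which held 4945 nuclei in WT SNI, 235 in KO SNI and 119 in WT naive, and were not repeated without it.

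Genes of rostral identity were near the floor. Their 16 genes summed to 16.1 CPM in KO SNI, 17.1 in WT SNI, 16 in KO naive and 14.3 in WT naive, against 1048, 1152, 1094 and 1144 CPM for the Hox genes in the same libraries. Of the 7 that could be compared, none was called for KO SNI to WT SNI or KO SNI to KO naive, with 6.5% and 17.9% of all genes called. En2 was called higher and Neurod6 lower in KO naive than in WT naive, with 20.5% of all genes. For WT SNI to WT naive 4 of the 7 were called, all higher (Lhx2, Irx2, Irx3 and Irx5), with 7.61% of all genes. These counts include cluster 1, with 4945 nuclei in WT SNI and 119 in WT naive, and were not repeated without it. The forebrain genes Otx2 and Six3 had 0 UMIs. Of the other caudal genes none was called in any pair over all kept nuclei or in neurons. Tshz2, a zinc finger factor of the trunk, led over all kept nuclei with 736 CPM in KO SNI, 719 in WT SNI, 743 in KO naive and 701 in WT naive. In oligodendrocyte-like nuclei 4 of 6 were called higher in KO naive than in WT naive (Tshz2, Tshz3, Nr6a1 and Lin28b), with 27.2% of all genes called. Tshz2 there had 155 CPM in KO SNI, 141 in WT SNI, 270 in KO naive and 106 in WT naive, and most KO naive nuclei of that class were in cluster 6. In astrocyte-like nuclei Tshz3 and Lin28b were called higher in KO naive than in WT naive, with 26.6% of all genes called.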

How the data were processed

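Raw UMI counts per gene and nucleus were deposited by the authors as 1 matrix per library. Cell Ranger 7.0.0 made them per the file headers, from 10x 3′ libraries per the labels; the submitters' processing notes name GRCm38, and how introns and strand were counted is not given in the sources used here. Nuclei with at least 300 genes and at most 5% mitochondrial UMIs were kept. The automatic doublet threshold of scrublet marked 5.65%, 0.111%, 4.8% and 0% of nuclei in KO SNI, WT SNI, KO naive and WT naive, so nuclei above the 90th percentile of the score were removed in every library, a choice made after seeing this. The libraries were clustered together without Hox genes (scanpy 1.11.5; 3000 variable genes, 40 components, 20 neighbours, Leiden resolution 1), and clusters were named from marker lists.

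UMIs were summed per class and library and given as CPM. Ratios carry exact conditional binomial, levels exact Poisson and shares Clopper-Pearson intervals at 95%. A count of 0 was set to 3 UMIs in a ratio. The ratio script was tested on simulated counts. Overlaps come from GENCODE vM21 and promoters from RefSeq. Hox genes with at least 200 UMIs were named one by one; of each other list, the 3 highest and the 3 with the largest ratio, except that some genes are not reported here. The genes, lists and comparisons were chosen with earlier results of these data known. Other fold, UMI, depth, clustering and scaling choices were tried.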

Additional observations from a re-analysis of the deposited data

Results flagged for a closer look

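Several ratios of Hox genes had opposite signs under the same contrast, and none of these differences was tested, with 1 library per group. In oligodendrocyte-like nuclei the log2 ratio of the summed Hox level was -0.26 for KO SNI to WT SNI and 0.57 for KO naive to WT naive, and it was -0.40 for KO SNI to KO naive and 0.43 for WT SNI to WT naive. Most KO naive nuclei of that class were in cluster 6, and neuron markers there were highest in KO naive and lowest in WT naive; their part in the ratios was not tested. In microglia-like nuclei the ratio was -0.20 for KO SNI to KO naive and 0.30 for WT SNI to WT naive.

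Hoxa6 in excitatory neuron-like nuclei had 0.74 for KO SNI to WT SNI and -0.59 for KO naive to WT naive, on 23 to 45 UMIs per library, and both intervals include 0. Hoxb3 in oligodendrocyte-like nuclei had -1.26 for KO SNI to KO naive and 0.69 for WT SNI to WT naive.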

How the results depend on the processing

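No paired analysis was possible because each group is 1 library and no result comes from a test; for the same reason no replicate was left out. Depth limits the low genes: several calls rest on fewer than 50 UMIs in a library, and which segments were dissected is not known.

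Pairs are given in the order KO SNI to WT SNI, KO naive to WT naive, KO SNI to KO naive and WT SNI to WT naive. As UMIs per nucleus in place of CPM, the log2 ratio of the summed Hox level was -0.44, 0.10, -0.38 and 0.15 in excitatory neuron-like, -0.52, 0.06, -0.41 and 0.17 in inhibitory neuron-like, -0.31, 0.31, -0.45 and 0.17 in astrocyte-like, and -0.50, 0.94, -0.79 and 0.65 in oligodendrocyte-like nuclei. This scaling moved all 16 ratios and changed the sign of 6, since it carries the depth per nucleus, which differed between libraries.

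The other alternatives moved fewer ratios of the summed level. Without Hox genes that overlap another gene on the same strand, KO naive to WT naive was -0.11 in excitatory and -0.03 in inhibitory neuron-like nuclei. With every cluster weighted equally, chosen after seeing the data, it was -0.12 in excitatory neuron-like nuclei, where WT SNI to WT naive was 0.01. With each library clustered on its own, inhibitory neuron-like nuclei had -0.22 for KO naive to WT naive and -0.09 for WT SNI to WT naive, and oligodendrocyte-like nuclei had -0.49 for KO SNI to WT SNI, 0.40 for KO naive to WT naive and -0.53 for KO SNI to KO naive. At Leiden resolution 0.5 the last was -0.50. In oligodendrocyte-like nuclei with at least 1000 UMIs and 500 genes, KO SNI to WT SNI was -0.11, KO naive to WT naive 0.87 and WT SNI to WT naive 0.57. Thinned to 1000 UMIs, the last 2 were 0.99 and 0.69. With cluster 2 alone, chosen after seeing the data, KO naive to WT naive was 0.26 and KO SNI to KO naive -0.12. For these results the cause was not tested.

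The log2 ratio of groups 10 to 13 over all kept nuclei, under alternatives chosen after seeing the data, was -0.46 for KO SNI to WT SNI without clusters 1 and 6. Without Hoxc10 it was -0.42 for KO SNI to WT SNI, 0.18 for KO naive to WT naive and 0.49 for WT SNI to WT naive. The share of these groups in all Hox UMIs of the kept nuclei, in the deeper nuclei (1000 UMIs and 500 genes or more), was 4.56% in KO SNI, 6.14% in WT SNI, 4.99% in KO naive and 4.67% in WT naive. Without Hoxc6 it was 5.58%, 7.47%, 5.88% and 5.97% in the same libraries, and 4.66%, 5.86%, 4.69% and 4.8% in excitatory neuron-like nuclei. Without clusters 1 and 6 it was 6.06% in WT SNI and 4.96% in KO naive.

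At 2-fold in place of 1.5-fold, the numbers of Hox genes called in the 4 pairs were 0, 0 and 1 in excitatory neuron-like nuclei (the first 3 pairs), 0, 1 and 0 in inhibitory neuron-like nuclei (without the third pair), 0, 1, 1 and 0 in astrocyte-like, 1, 3, 2 and 0 in oligodendrocyte-like and 2, 0, 0 and 1 in all kept nuclei. Without cluster 1, and without clusters 1 and 6, chosen after seeing the data, all kept nuclei had 4, 1, 3 and 3. With 20 UMIs over the pair in place of 50, excitatory neuron-like nuclei had 7 for KO SNI to WT SNI, 5 for KO SNI to KO naive and 2 for WT SNI to WT naive. Inhibitory neuron-like nuclei then had 2, 5, 1 and 4, astrocyte-like nuclei 7 for KO naive to WT naive and 5 for KO SNI to KO naive, and oligodendrocyte-like nuclei 4 for KO SNI to WT SNI and 8 for WT SNI to WT naive. The share of all genes called under these alternatives was not counted, so no excess or lack of Hox genes is read from these numbers.

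Without thinning, the share of nuclei with a Hox UMI was 77.6%, 86.3%, 85.0% and 83.9% in excitatory and 78.0%, 88.2%, 86.3% and 85.8% in inhibitory neuron-like nuclei of KO SNI, WT SNI, KO naive and WT naive. It was 54.8% in KO SNI and 65.6% in KO naive astrocyte-like nuclei, and 62.9% in KO naive and 35.0% in WT naive microglia-like nuclei.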
